A study of Mus musculus with 47 samples.

Results

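A set of 10 non-clustered protocadherins was followed through mouse striatum by name, whatever their level. They were Pcdh1, Pcdh7, Pcdh8, Pcdh9, Pcdh10, Pcdh15, Pcdh17, Pcdh18, Pcdh19 and Pcdh20. Pcdh11x and Pcdh12, also non-clustered, were outside the set. The set was chosen with earlier results of these data known, so its shares beside those of all genes only describe it. All 10 were found among the 48795 genes of the count table, and all 10 passed the filter on low counts. Bulk RNA sequencing covered the striatum of 47 mice aged 6 months on a C57BL background. The study crossed Q140, a knock-in model of Huntington's disease that carries an expanded CAG repeat in Htt, with mice that lacked 1 or both intact copies of Ccdc82, the gene of a coiled-coil protein. The groups were wild type (WT), Q140, Ccdc82+/-, Q140 with Ccdc82+/-, Ccdc82-/- and Q140 with Ccdc82-/-. Each held 4 females and 4 males, except the last, which held 3 females and 4 males. All mice with Q140 were heterozygous for the knock-in, per the labels; how Ccdc82 was disrupted is not given in the sources used here.

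Protocadherins are cadherin-family adhesion molecules of the cell surface. The non-clustered ones stand alone in the genome, unlike the alpha, beta and gamma clusters, and each is made in its own set of neurons, where it bears on axon growth, sorting of contacts and synapses. They fall mainly into a delta-1 class (Pcdh1, Pcdh7 and Pcdh9 here), whose tails hold a protein phosphatase 1 binding motif, and a delta-2 class (Pcdh8, Pcdh10, Pcdh17, Pcdh18 and Pcdh19), whose members can recruit the WAVE complex, a driver of actin branching. Pcdh15, part of the tip link of inner ear hair cells, and Pcdh20 lie outside both classes.

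The libraries held 41327333 to 61701245 counts, with a median of 47701604. Ccdc82 itself stood at 12.01 ± 0.773 CPM (counts scaled to library sizes, themselves scaled by the TMM method; SD, n = 8) in WT and 11.6 ± 0.95 (n = 8) in Q140. It stood at 8.42 ± 0.519 in Ccdc82+/- (n = 8), 8.61 ± 0.927 in Q140 with Ccdc82+/- (n = 8), 4.57 ± 0.666 in Ccdc82-/- (n = 8) and 4.56 ± 0.652 in Q140 with Ccdc82-/- (n = 7), so its counts followed the labels while some RNA remained without an intact copy. Of 12 medium spiny neuron markers, 12 were detected, with a summed level of 16860 to 19400 CPM in WT. The summed level of 10 choroid plexus markers reached 345.8 CPM in 1 Ccdc82-/- male (male 1), against at most 71.7 in every other library; that library was left out in turn. Striatum was sequenced as a whole, so fewer cells of a type and less RNA per cell cannot be told apart.

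With Q140, Pcdh20, Pcdh19 and Pcdh10 rose on all 3 Ccdc82 backgrounds, and no library with Q140 overlapped its controls for these genes. Pcdh20 rose most, to 2.71 times its WT level, followed by Pcdh19 at 1.93 times and Pcdh10 at 1.44 times. Pcdh9 also rose on all 3 backgrounds, to 1.09 times its WT level, and Pcdh1 and Pcdh7 fell slightly against WT alone. By edgeR's quasi-likelihood test at a Benjamini-Hochberg adjusted p under 0.05, 6 of the 10 members were called in Q140 against WT, where 34.7% of the 19193 genes tested were called. In that contrast 4 members were higher, against 18.2% of all genes, and 2 were lower, against 16.5%. On Ccdc82+/- 4 of 10 were called, where 35% of all genes were: 4 were higher (18.4% of all genes) and 0 lower (16.7%). On Ccdc82-/- 4 were again called, where 33.2% of all genes were: 4 were higher (17.5%) and 0 lower (15.7%). The members' median log2 fold change was 0.12, 0.11 and 0.12 in the 3 contrasts, while the median over all genes was within 0.011 of 0. The 3 contrasts used different mice. The same 4 members, Pcdh9, Pcdh10, Pcdh19 and Pcdh20, were higher on all 3 backgrounds, as were 2263 genes in all, or 11.8% of those tested. Complete separation of Q140 libraries above their controls held for 3 members on each background, against 4.7%, 4.52% and 4.12% of all genes; separation below the controls held for 0 members, against 5.07%, 5.76% and 5.36%.

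**Figure D1:**
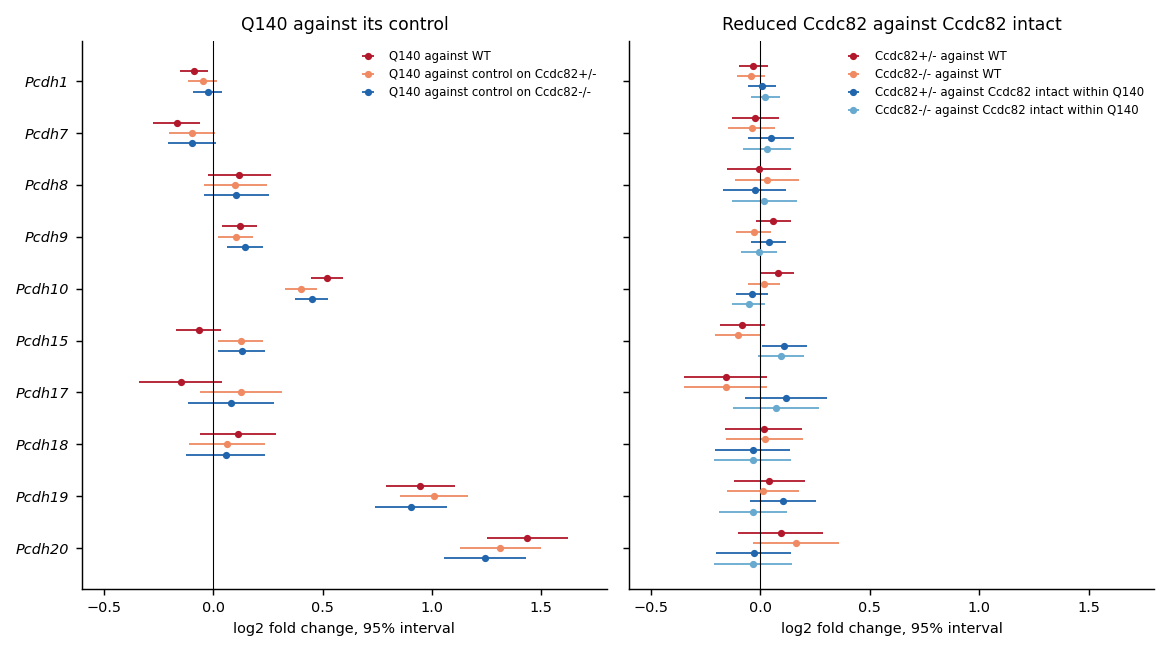
Log2 fold changes (x axis) of the 10 members with 95% intervals, in Q140 against its control on 3 Ccdc82 backgrounds (left) and in reduced against intact Ccdc82 (right), edgeR fit over 47 libraries. Pcdh10, Pcdh19 and Pcdh20 lie at 0.40 or above in each Q140 contrast, while values in the Ccdc82 contrasts stay between -0.16 and 0.16.

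The 3 genes with separated libraries lie on different chromosomes, apart from any protocadherin cluster. In GRCm38, Pcdh20 spans chr14:88464743-88471396 on the minus strand, Pcdh19 spans chrX:133582860-133688987 on the minus strand and Pcdh10 spans chr3:45378398-45435623 on the plus strand. The 250 bases before each RefSeq start (GRCm38.p6) are shown because these genes moved together; a CCAAT box (CCAAT, or ATTGG on the other strand) is in capitals.
Pcdh20: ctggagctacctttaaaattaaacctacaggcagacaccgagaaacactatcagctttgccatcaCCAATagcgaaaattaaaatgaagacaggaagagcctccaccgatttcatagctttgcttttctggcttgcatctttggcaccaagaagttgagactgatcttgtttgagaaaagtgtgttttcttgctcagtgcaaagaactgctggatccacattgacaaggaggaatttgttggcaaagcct
Pcdh19: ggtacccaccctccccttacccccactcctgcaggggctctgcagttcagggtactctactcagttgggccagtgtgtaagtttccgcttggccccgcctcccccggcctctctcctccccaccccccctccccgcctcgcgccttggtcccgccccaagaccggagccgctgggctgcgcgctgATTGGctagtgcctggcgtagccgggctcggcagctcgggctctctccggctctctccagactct
Pcdh10: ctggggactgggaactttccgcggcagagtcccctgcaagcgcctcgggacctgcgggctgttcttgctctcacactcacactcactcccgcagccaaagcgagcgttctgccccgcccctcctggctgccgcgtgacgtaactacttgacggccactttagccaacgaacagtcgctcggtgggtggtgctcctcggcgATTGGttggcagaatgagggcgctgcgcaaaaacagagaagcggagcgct
These windows lie at chr14:88471397-88471646 for Pcdh20, chrX:133688994-133689243 for Pcdh19 and chr3:45378148-45378397 for Pcdh10, each on its gene's strand. Each holds 1 CCAAT box, which 33.8% of 32817 RefSeq promoter windows of this length also hold. None of the 3 holds a cAMP response element (TGACGTCA, in 1.55% of windows), an AP-1 site (TGANTCA, 6.75%), an EGR site (GCGNGGGCG, 4.7%) or a TATA box (TATAAA, 12.4%), searched on both strands. Their base composition differs. The Pcdh10 window has 22 CpG dinucleotides and a GC content of 63.2%, and the Pcdh19 window has 16 and 69.2%. The Pcdh20 window has 3 and 42.4%, where the median window has 6 CpG and 52.4% GC. The CCAAT box is not particular to these genes: the windows of Pcdh8, Pcdh9, Pcdh15, Pcdh17 and Pcdh18 hold it too, and that of Pcdh7 does not. Among the other members, Pcdh8 and Pcdh15 hold a TATA box and Pcdh17 an EGR site. RefSeq windows of 9 of the 10 members were used.

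Pcdh20 is the least studied of these genes, an adhesion molecule with a short gene. Its level ran from 6.15 to 8.26 CPM in the 8 WT libraries, with a median of 7.63, and from 14.95 to 24.3, median 20.2, in the 8 Q140 libraries. On Ccdc82+/- it ran from 6.40 to 8.86 CPM (median 7.94) without Q140 and from 17.2 to 22.5 (median 19.3) with it. On Ccdc82-/- it ran from 6.49 to 10.5 CPM (median 7.94) without Q140 and from 16.4 to 24.1 (median 18.9) with it. The lowest of the 23 libraries with Q140 thus stood above the highest of the 24 without it. The log2 fold change was 1.44 ± 0.09 (SE; edgeR adjusted p = 6.53e-17) against WT, 1.31 ± 0.09 (5.37e-16) on Ccdc82+/- and 1.24 ± 0.09 (9.86e-15) on Ccdc82-/-. Among the 13938 genes whose log2 CPM averaged 1 or more over the libraries, Pcdh20 ranked 4, 6 and 7 by size of rise.

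Pcdh19 is X-linked, and its human counterpart is known for an epilepsy that affects mainly heterozygous females. Its level ran from 10.1 to 15.7 CPM in WT, with a median of 11.4, and from 17.3 to 27.6, median 23.6, in Q140. On Ccdc82+/- the range was 10.3 to 14.6 CPM (median 12.1) without Q140 and 21.7 to 27.4 (median 24.1) with it. On Ccdc82-/- it was 10.9 to 14.2 CPM (median 11.7) without Q140 and 19.5 to 24.7 (median 22.0) with it. Here too the 2 sets of libraries did not overlap. The highest control was WT male 4 at 15.7 CPM. The log2 fold change was 0.95 ± 0.08 (edgeR adjusted p = 1.34e-13) against WT, 1.01 ± 0.08 (1.1e-14) on Ccdc82+/- and 0.90 ± 0.08 (1.23e-12) on Ccdc82-/-. Pcdh19 ranked 18, 18 and 20 by size of rise.

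Pcdh10, also called OL-protocadherin, guides axons of and through the striatum in development and binds the WAVE complex. It was the most abundant of the 3, at 243 to 274 CPM in WT (median 259) and 337 to 403 in Q140 (median 374). Ccdc82+/- libraries ran from 248 to 299 CPM (median 277) without Q140 and from 339.9 to 378 (median 358) with it. Ccdc82-/- libraries ran from 240.1 to 285 CPM (median 260.0) without Q140 and from 328 to 386 (median 356) with it. Again every library with Q140 was above every library without it. The log2 fold change was 0.52 ± 0.04 (edgeR adjusted p = 2.09e-16), 0.40 ± 0.04 (5.62e-13) and 0.45 ± 0.04 (6.58e-14) on the 3 backgrounds. Its rank by size of rise was 122, 303 and 208, well below that of Pcdh20 and Pcdh19.

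**Figure D2:**
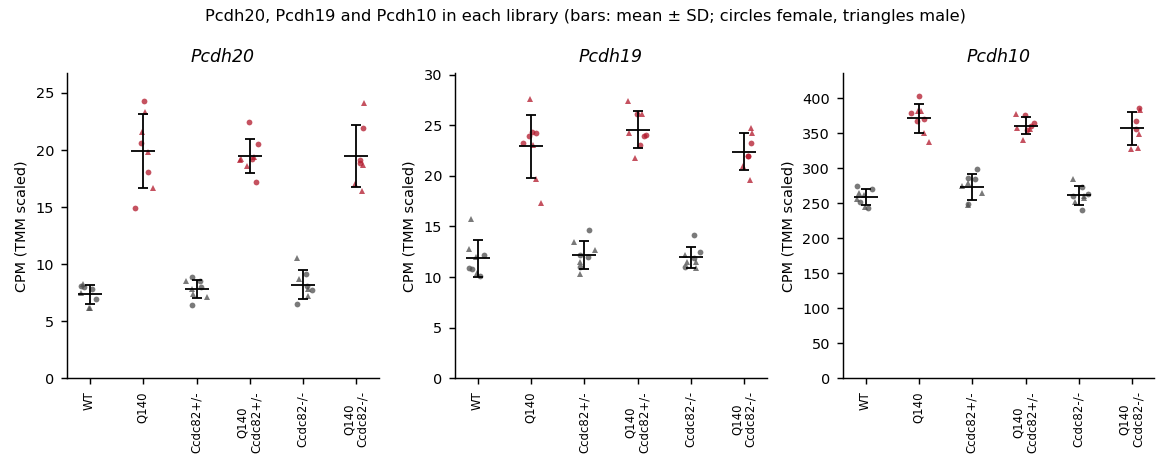
TMM-scaled CPM (y axis, from 0) of Pcdh20, Pcdh19 and Pcdh10 in each of the 47 libraries by group, circles female and triangles male, bars mean ± SD, red with Q140. In all 3 panels the libraries with Q140 lie above those without it, for example Pcdh20 at 14.95 to 24.3 CPM in Q140 against 6.15 to 8.26 in WT.

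Among the delta-1 members, Pcdh9, a gene of 877 kb on chr14 made in many forebrain neurons, rose by little. It stood at 67.2 ± 2.84 CPM (SD, n = 8) in WT and 73.3 ± 5.53 (n = 8) in Q140, and 6 of the 8 Q140 libraries were above every WT library. It stood at 70.0 ± 4.89 (n = 8) against 75.2 ± 2.6 (n = 8) on Ccdc82+/- and 65.9 ± 4.68 (n = 8) against 72.9 ± 2.19 (n = 7) on Ccdc82-/-. On Ccdc82+/- 2 of 8 libraries with Q140 were above every control, and on Ccdc82-/- 4 of 7. The groups overlapped on each background. The log2 fold change was 0.12 ± 0.04 (edgeR adjusted p = 0.0125), 0.10 ± 0.04 (0.0376) and 0.15 ± 0.04 (0.00388). With the plate column of the library as a factor, the values against WT and on Ccdc82+/- were both 0.10 and did not pass. Plate columns were not spread evenly over genotypes: column 4 held 4 WT and 0 Q140 libraries, and column 1 held 0 WT and 3 Q140.

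Pcdh1, known from airway epithelium and also made in brain, had the highest FPKM of the members in WT. It stood at 195 to 228 CPM in WT (median 209) and 182 to 209 in Q140 (median 197). The log2 fold change was -0.09 ± 0.03 (edgeR adjusted p = 0.0263) against WT, and -0.05 ± 0.03 (0.263) and -0.02 ± 0.03 (0.627) on the other backgrounds. Pcdh7, whose tail binds protein phosphatase 1, stood at 88.2 to 122 CPM in WT (median 99.5) and 86.1 to 100.6 in Q140 (median 91.4). Its log2 fold change was -0.17 ± 0.05 (edgeR adjusted p = 0.0104) against WT and -0.10 ± 0.05 on both Ccdc82 backgrounds (0.154 and 0.175). WT and Q140 libraries overlapped for both genes. Both calls were lost on the deposited FPKM values, and the Pcdh1 call also when any of 6 single libraries was left out. Pcdh7 lies 22.8 Mb from Htt on the same chromosome.

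The other 4 members were called in no Q140 contrast. Pcdh8, or arcadlin, induced by activity and a regulator of cadherin uptake at synapses, stood at 8.50 ± 0.803 CPM (SD, n = 8) in WT and 9.23 ± 1.05 (n = 8) in Q140. Its log2 fold changes were 0.12, 0.10 and 0.11, each ± 0.07 (edgeR adjusted p = 0.199, 0.295 and 0.292). Pcdh18, which binds the adaptor Dab1, was the scarcest member, at 3.798 ± 0.546 CPM (n = 8) in WT and 4.12 ± 0.542 (n = 8) in Q140. Its log2 fold changes were 0.11, 0.06 and 0.06, each ± 0.09 (edgeR adjusted p = 0.324, 0.625 and 0.67). Pcdh17, which organises presynaptic vesicles in circuits between cortex and basal ganglia, stood at 135 ± 8.34 CPM (n = 8) in WT and 122 ± 17.1 (n = 8) in Q140. Its coefficient of variation between mice ran from 6.17% in WT to 19.2% in Ccdc82+/-, where libraries ran from 98.0 to 169.7 CPM. Its log2 fold change was -0.15 ± 0.09 against WT and 0.13 ± 0.09 and 0.08 ± 0.10 on the other backgrounds (edgeR adjusted p = 0.232, 0.313 and 0.57). The intervals of these values leave room for changes of the size seen in Pcdh9. For Pcdh17 against WT this holds for a fall only: the 95% interval ran from -0.34 to 0.04. It holds for a rise only for Pcdh8 on each background, Pcdh18 against WT and Pcdh17 on Ccdc82+/-, whose lower limits lay from -0.06 to -0.02.

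Pcdh15, also found in precursors of oligodendrocytes, stood at 18.1 ± 1.82 CPM (SD, n = 8) in WT and 17.3 ± 1.16 (n = 8) in Q140, a log2 fold change of -0.07 ± 0.05 (edgeR adjusted p = 0.344). On Ccdc82+/- it stood at 17.1 ± 1.22 (n = 8) against 18.7 ± 0.671 (n = 8), and on Ccdc82-/- at 16.9 ± 1.56 (n = 8) against 18.5 ± 1.15 (n = 7). These differences were 0.13 ± 0.05 in both cases, with adjusted p = 0.0514 and 0.0522. Without the Ccdc82-/- male rich in choroid plexus markers they were 0.12 and 0.16, with adjusted p = 0.0467 and 0.0172. Of 13 alternative settings, that one included, 5 called Pcdh15 on each of these 2 backgrounds. The log2 fold changes ran from 0.04 to 0.21 on Ccdc82+/- and from 0.06 to 0.21 on Ccdc82-/-. The summed level of 9 markers of oligodendrocyte precursors ran from 276 to 317 CPM in WT and 277 to 337 in Q140, and Pdgfra, which defines these cells, stood at 46.5 and 46.6 CPM. On Ccdc82+/- the sum ran from 277 to 319 CPM without Q140 and from 291.8 to 321.5 with it (mean Pdgfra 47.3 and 46.45). On Ccdc82-/- it ran from 284 to 318 CPM without Q140 and from 290 to 321 with it (mean Pdgfra 47.1 and 46.47).

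**Figure D3:**
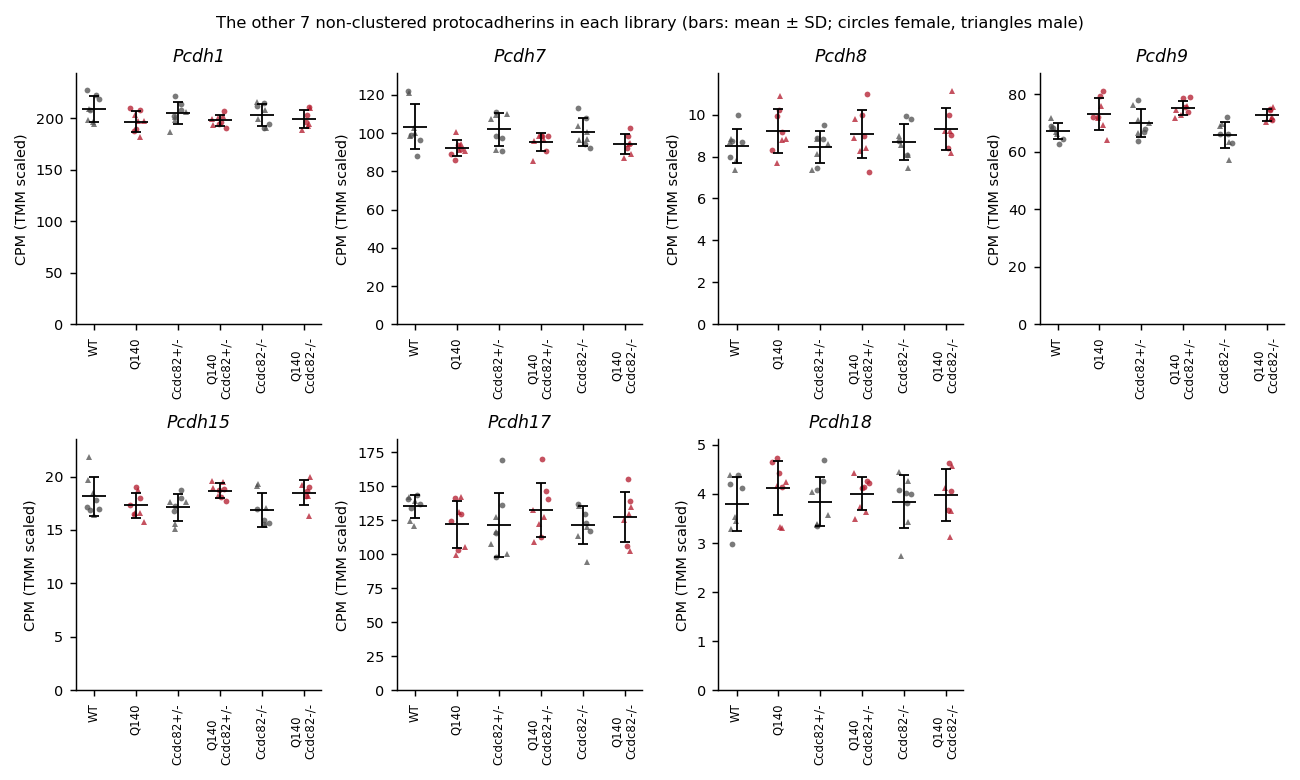
TMM-scaled CPM (y axes, from 0) of the other 7 members in each of the 47 libraries by group, circles female and triangles male, bars mean ± SD, red with Q140. Groups overlap in every panel; Pcdh17, for example, ran from 98.0 to 169.7 CPM within Ccdc82+/-.

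Levels of different members were compared as the deposited FPKM (fragments scaled by transcript length and by library total). In WT the order was Pcdh1 (23.3 ± 1.27 FPKM; SD, n = 8), Pcdh10 (15.9 ± 0.606), Pcdh17 (13.9 ± 0.817), Pcdh9 (9.71 ± 0.412), Pcdh7 (9.55 ± 1.02), Pcdh8 (1.84 ± 0.184), Pcdh20 (1.31 ± 0.149), Pcdh19 (1.11 ± 0.178), Pcdh15 (0.748 ± 0.0821) and Pcdh18 (0.693 ± 0.0974). Libraries of neighbours in this order overlapped for Pcdh9 and Pcdh7, for Pcdh20 and Pcdh19, and for Pcdh15 and Pcdh18. In Q140, Pcdh10 reached 23.8 ± 1.3 FPKM and overlapped with Pcdh1 at 22.8 ± 1.11. Pcdh20 reached 3.69 ± 0.605 FPKM and passed Pcdh8 at 2.07 ± 0.246, while Pcdh19 at 2.23 ± 0.297 overlapped with Pcdh8. The summed FPKM of the 10 members was 78.1 ± 2.16 (n = 8) in WT and 89.0 ± 3.43 (n = 8) in Q140, 77.2 ± 3.52 and 90.9 ± 2.0 (n = 8 each) on Ccdc82+/-, and 75.8 ± 3.16 (n = 8) and 89.5 ± 4.11 (n = 7) on Ccdc82-/-. In every pair the lowest sum with Q140 was above the highest control: 82.1 against 81.3 for WT, 87.7 against 82.9 and 85.7 against 79.5. The share of Pcdh10 in the sum was 20.4% in WT and 26.7% in Q140, that of Pcdh19 and Pcdh20 together 3.10% and 6.65%, and that of Pcdh1 29.8% and 25.6%. The median gene's FPKM was itself higher with Q140, by 0.05 on the log2 scale against WT, 0.08 on Ccdc82+/- and 0.07 on Ccdc82-/-. The sums were not corrected for this shift. The gap of 82.1 against 81.3 is narrower than the shift against WT, so separation of the sums there is not shown apart from it. On Ccdc82+/- the gap of 87.7 against 82.9 is about as wide as the shift on that background, so the same limit applies.

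**Figure D4:**
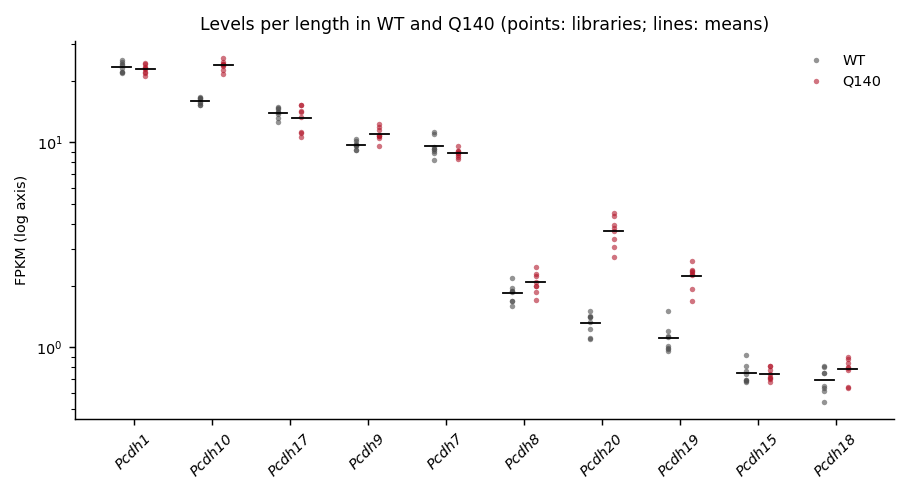
Deposited FPKM (y axis, log scale) of the 10 members in the 8 WT (grey) and 8 Q140 (red) libraries, points libraries and lines means, members ordered by WT mean. Pcdh10 moves from 15.9 to 23.8 FPKM, beside Pcdh1 at 23.3 and 22.8, and Pcdh20 moves from 1.31 to 3.69, past Pcdh8.

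Loss of Ccdc82 was asked about separately, with and without Q140. No member was called in any of the 4 Ccdc82 contrasts by edgeR, where 1 gene of 19193 (0.00521%) was called in each, Ccdc82 itself. At an unadjusted p under 0.05 there were 628 and 804 genes for Ccdc82+/- and Ccdc82-/- against WT, and 1101 and 712 within Q140; DESeq2 also called 1 gene in each. None of the 3 genes with the largest rises under Q140 passed. Pcdh20 was 0.09 ± 0.10 (95% interval -0.10 to 0.29) in Ccdc82+/- and 0.16 ± 0.10 (-0.03 to 0.36) in Ccdc82-/- against WT, and -0.03 ± 0.09 in both contrasts within Q140 (-0.20 to 0.14 and -0.21 to 0.15). Pcdh19 was 0.04 ± 0.08 (-0.12 to 0.20) and 0.01 ± 0.08 (-0.15 to 0.17) against WT, and 0.10 ± 0.07 (-0.05 to 0.25) and -0.03 ± 0.08 (-0.19 to 0.12) within Q140. Pcdh10 was 0.08 ± 0.04 (0.01 to 0.15) and 0.02 ± 0.04 (-0.06 to 0.09) against WT, and -0.04 ± 0.04 (-0.11 to 0.03) and -0.05 ± 0.04 (-0.13 to 0.02) within Q140. Pcdh17 was -0.16 ± 0.09 in both contrasts against WT, with 5 of 8 Ccdc82+/- libraries below every WT library, and neither value passed.

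Whether Ccdc82 dosage altered the effect of Q140 was asked with interaction terms, which share samples with the contrasts above. By edgeR 0 genes (0%) passed for either term, so no member did; 1011 and 826 genes had an unadjusted p under 0.05, and DESeq2 called 1 and 0. The term for Pcdh20 was -0.12 ± 0.13 (95% interval -0.38 to 0.14) with Ccdc82+/- and -0.19 ± 0.13 (-0.46 to 0.07) with Ccdc82-/-. For Pcdh19 it was 0.06 ± 0.11 (-0.16 to 0.28) and -0.04 ± 0.11 (-0.27 to 0.18). For Pcdh10 it was -0.12 ± 0.05 (-0.22 to -0.02) and -0.07 ± 0.05 (-0.18 to 0.03), with an adjusted p of 0.914 for the first. Pcdh15 had the largest terms relative to error, 0.19 ± 0.07 and 0.20 ± 0.07, with adjusted p = 0.914 and 0.998. Its 95% intervals ran from 0.05 to 0.34 and from 0.05 to 0.35.

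No member differed between the sexes by edgeR's test over the 6 genotypes, where 8.67% of genes were called, 4.03% higher in males and 4.64% lower. Pcdh18 came nearest, with a male against female log2 fold change of -0.14 ± 0.05 (edgeR adjusted p = 0.0614); DESeq2 and the fit without WT male 1 called it. Pcdh17 was -0.13 ± 0.05 (adjusted p = 0.119) and Pcdh1 -0.05 ± 0.02 (0.0845). Pcdh19, despite its place on the X, was at -0.01 ± 0.05 (95% interval -0.10 to 0.08). The difference of the Q140 effect between males and females passed for 0 of 19714 genes (0%) in edgeR, with 621 at an unadjusted p under 0.05, and for 0 in DESeq2. For Pcdh20 that difference was 0.00 ± 0.11 (95% interval -0.23 to 0.23), for Pcdh19 -0.05 ± 0.09 and for Pcdh10 -0.04 ± 0.04.

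Beyond genotype and sex, the 4 members that rose varied together from mouse to mouse. Deviations of log2 CPM from the genotype and sex means were correlated over the 47 libraries, in a family of 14 relations with two-sided permutation p-values. Pairs with the other members were not part of it, so whether such covariation is particular to these 4 was not tested. Pcdh10 went with Pcdh19 (Pearson r = 0.65, Spearman rho = 0.67, adjusted p = 0.00014 for each; r = 0.68 without the 2 libraries farthest from the median of Pcdh10) and with Pcdh20 (r = 0.60, rho = 0.60, adjusted p = 0.00014 for each; r = 0.59 without the 2). Within the 6 plate columns, of 7 or 8 libraries each, r ran from 0.51 to 0.84 for the first pair and from 0.27 to 0.91 for the second. It was 0.58 and 0.50 in the 24 libraries without Q140, and 0.75 and 0.71 in the 23 with it. Pcdh19 went with Pcdh20 at r = 0.43 (rho = 0.45, adjusted p = 0.00532 and 0.00482; 0.36 without the 2 farthest), and 0.15 to 0.76 within plate columns. Pcdh9 went with Pcdh20 at r = 0.51 (rho = 0.51; adjusted p = 0.00103 and 0.00145; 0.47 without the 2), with Pcdh19 at 0.47 (rho = 0.43; 0.00297 and 0.00567; 0.37) and with Pcdh10 at 0.43 (rho = 0.39; 0.00532 and 0.012; 0.41). These last 3 relations did not hold within every plate column: the lowest r was -0.56, -0.30 and -0.42, and r was above 0 in 5, 5 and 4 of 6 columns.

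**Figure D5:**
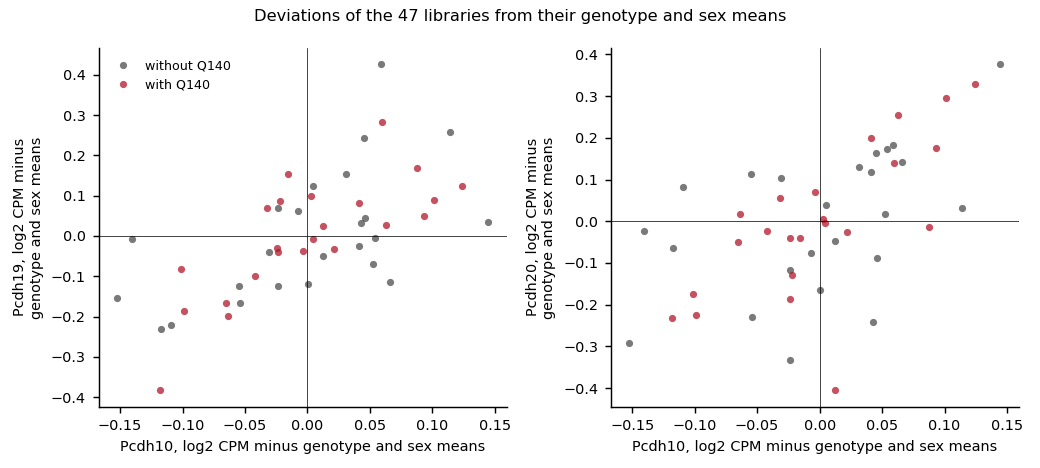
Deviation of log2 CPM from genotype and sex means in the 47 libraries, Pcdh10 on the x axis against Pcdh19 (left) and Pcdh20 (right), red with Q140 and grey without. Points rise together in both panels, r = 0.65 and 0.60.

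The same deviations were set beside those of the summed medium spiny neuron markers, since these markers moved with Q140: 12 of 12 fell against WT, with a median log2 fold change of -0.51, none was at 0, and their sum was 16860 to 19400 CPM in WT and 11210 to 13400 in Q140. Within genotypes, Pcdh19 went against the marker sum (r = -0.45, rho = -0.42, permutation adjusted p = 0.00468 and 0.00662; r = -0.29 without the 2 farthest libraries), as did Pcdh20 (r = -0.38, rho = -0.46, adjusted p = 0.0162 and 0.00465; -0.34). Within plate columns r ran from -0.83 to 0.22 for Pcdh19 and from -0.72 to -0.11 for Pcdh20. For Pcdh10 r was -0.24 (adjusted p = 0.138; rho = -0.23, 0.167) and for Pcdh9 -0.28 (0.0813; rho = -0.28, 0.0951). In the 24 libraries without Q140 and the 23 with it, r was -0.06 and -0.43 for Pcdh10, -0.07 and -0.56 for Pcdh9, -0.48 and -0.43 for Pcdh19, and -0.33 and -0.42 for Pcdh20; the difference between these sets was not tested. No relation passed with Slc17a7, a marker of cortical and other excitatory neurons, at 3.74 ± 2.12 CPM (SD, n = 8) in WT and 2.24 ± 0.656 (n = 8) in Q140: the 4 values of r lay between -0.15 and 0.03. What part the mix of cells has in the rises was not tested.

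The genes whose deviations were most like those of each riser, over the 47 libraries and all genes tested, were Pip4k2a and Rasgrp3 for Pcdh20 (both r = 0.72), Vstm2a (0.76) and Tenm1 (0.74) for Pcdh19, and Kif1a (0.72) and Gpr101 (0.70) for Pcdh10. Pcdh7 had the highest values of any member, r = 0.82 with both Rgs7bp and Ryr2. For Pcdh17 they were Ddx5 (0.78) and Lin7a (0.76), and for Pcdh9 Tanc1 (0.69) and Gdpd2 (0.67). None of the 10 members had another member among its 2 most alike genes.

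Neighbouring genes did not all move with the risers. Pcdh17, Pcdh20 and Pcdh9 lie in that order on chr14 within 9.45 Mb that hold only 5 protein-coding genes, these 3 included. Tdrd3, the nearest tested gene below Pcdh20 at 0.919 Mb, had a log2 fold change of 0.07 ± 0.03 (edgeR adjusted p = 0.127) in Q140 against WT. Klhl1, 2.21 Mb above Pcdh9, rose by 0.46 ± 0.08 (adjusted p = 2.55e-05). Beside Pcdh19, Tspan6 at 0.202 Mb rose by 0.39 ± 0.07 (2.61e-05) and Diaph2 at 3.12 Mb fell by 0.16 on the log2 scale (9.13e-05). Beside Pcdh10, D3Ertd751e at 3.58 Mb was at 0.03 ± 0.04 (0.575) and Pabpc4l, at 1.01 Mb, at 0.49 ± 0.23 (0.104). Exons on the opposite strand overlap Pcdh7, Pcdh8, Pcdh10 and Pcdh19. The overlapping transcript of Pcdh19, Gm26851, stood at 0.0989 CPM in WT and 0.211 in Q140 and rose by 1.04 ± 0.31 (adjusted p = 0.00663). On Ccdc82+/- Gm26851 rose by 1.77 ± 0.34 (edgeR adjusted p = 3.45e-05), and on Ccdc82-/- it was at 0.64 ± 0.31 (0.114). Pcdh19 itself stood at 11.9 CPM in WT and 22.9 in Q140. The kit keeps strand, but whether counting used it is not given in the sources used here. The count of Gm26851 therefore sets no limit on reads from the opposite strand counted for Pcdh19, and their part was not tested.

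In Q140 against WT, other cadherin-family genes outside the 10 were called at shares near those of all genes, 18.2% higher and 16.5% lower. Of 15 tested among other non-clustered protocadherins and atypical cadherins, 2 rose and 3 fell, with a median log2 fold change of -0.03. The risers were Fat1, a giant cadherin, from 70.9 to 116 CPM (0.71 ± 0.05; edgeR adjusted p = 7.93e-17), and Pcdh11x, a delta-1 protocadherin, from 35.3 to 47.1 CPM (0.42 ± 0.05; 1.64e-09). Both rose on the other backgrounds, Fat1 by 0.73 on each and Pcdh11x by 0.37 and 0.36. Celsr2, a planar polarity cadherin, fell by 0.19 against WT. Of 17 classical cadherins 4 rose and 3 fell (median -0.02), with Cdh18 at 0.64 ± 0.07, Cdh10 at 0.37 ± 0.05 and Cdh4 at -0.71 ± 0.12. On Ccdc82+/- 6 of these 17 rose and 5 fell, shares above those of all genes (18.4% and 16.7%). On Ccdc82-/- 6 rose and 4 fell, again above them (17.5% and 15.7%). The lists were not tested as sets.

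Among the WAVE complex, catenins and other partners more genes fell than rose. Of 12 genes listed for the WAVE complex, Rac1 included, 3 rose and 6 fell against WT (median -0.13). On Ccdc82+/- 2 rose and 7 fell (median -0.22), and on Ccdc82-/- 1 rose and 7 fell (median -0.19). The risers against WT were 2 subunits, Cyfip1 (0.16, edgeR adjusted p = 8.02e-07) and Wasf3 (0.09, 0.0259), and Rac1 (0.05, 0.0491). Rac1 activates the complex and is not a subunit of it. Cyfip1 also rose on the other backgrounds, by 0.13 on Ccdc82+/- and 0.07 on Ccdc82-/-. Wasf1 and Wasf2 were called in none of these contrasts. Abi1 fell by 0.27 (edgeR adjusted p = 1.08e-12), Cyfip2 by 0.27 (2.71e-09) and Nckap1, the subunit that Pcdh10 binds, by 0.20 (4.26e-10) on the log2 scale, and all 3 fell on the other backgrounds too. Of 8 catenins, which link classical cadherins to actin, 1 rose and 4 fell (median -0.08): Ctnnb1 rose by 0.10 ± 0.02, while Ctnnd2 fell by 0.16 and Ctnna1 by 0.19. Of 6 other partners of delta protocadherins 1 rose and 3 fell (median -0.04), among them Ppp1ca, the phosphatase subunit bound by the delta-1 tail, which fell by 0.37 (6.45e-15), and Dab1, which fell by 0.24 (2e-08). Of 7 tested tip link partners of Pcdh15, 1 rose, Lhfpl5 by 0.53 ± 0.09 from 1.42 to 2.05 CPM, and 0 fell (median 0.03). The median of all genes was 0.00 in this contrast, with 18.2% higher and 16.5% lower.

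Marker lists of other cells gave the following in the same contrast. Of 12 interneuron markers 1 rose and 2 fell, of 10 astrocyte markers 0 and 4, of 10 of mature oligodendrocytes 0 and 3, of 9 of oligodendrocyte precursors 2 and 1, of 10 of microglia 0 and 3, and of 11 of vessels 0 and 6. Of 8 meningeal, 8 tested choroid plexus, 7 ependymal and 8 thalamic or pallidal markers, 0, 1, 0 and 1 rose and none fell. Of 12 cortical markers 3 rose and 5 fell. Every call in the astrocyte, mature oligodendrocyte, microglia and vessel lists was thus a fall, as was every call among the 12 medium spiny neuron markers. Over all genes 18.2% were higher and 16.5% lower. On the other backgrounds 0 of the 10 microglia markers rose, while 9 fell on Ccdc82+/- (median -0.15) and 8 on Ccdc82-/- (median -0.17). Of the 11 vessel markers 8 and 6 fell, of the 10 of mature oligodendrocytes 2 and 5 and of the 10 of astrocytes 3 and 4, with 0 rising in each. Of the 12 interneuron markers 4 and 2 fell and 1 rose on each, of the 9 of oligodendrocyte precursors 1 fell and 1 rose on each, and of the 12 cortical markers 2 and 3 fell and 3 rose on each. Of the 8 meningeal markers 1 and 2 fell and 0 rose. Of the 8 choroid plexus markers 1 rose on each background and 3 fell on Ccdc82-/-, whose controls include the male rich in these markers. Of the 8 thalamic or pallidal markers 0 and 1 rose, and no ependymal marker was called. What part these cells have in the members' values was not tested.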

How the data were processed

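RNA was extracted with a Qiagen RNeasy kit and libraries made with the Illumina TruSeq stranded protocol, per the labels' protocols. STAR 2.7.5c, SAMtools 1.10 and HTSeq 0.12.3 with GRCm38 (mm10) were used by the authors, per the submitters' processing notes; settings and annotation release are not given in the sources used here. The deposited values are raw read counts per gene and FPKM; the authors' FPKM equal the counts divided by the column total and 1 length per gene (largest relative deviation 2.5e-13). Positions came from GENCODE M21, in which 48349 of 48795 genes were found, and promoter windows from RefSeq.

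Counts were fitted with edgeR 4.0.16 (R 4.3.3) over all 47 libraries, with genotype and sex as terms, TMM scaling and filterByExpr, which kept 19193 genes; the difference of the Q140 effect between sexes came from a fit with 12 genotype and sex groups (19714 genes). P-values were adjusted over all genes tested. The script was tested on simulated data. Alternatives used RLE scaling, DESeq2 1.42.0, no filter, no sex term, plate column, the replicate block, only the groups compared, each sex alone, limma 3.58.1 on log2(FPKM + 0.1) or (FPKM + 0.01) with a filter of 0.1 FPKM in 7 libraries, and left-out libraries. All 10 members are named. Of each gene list up to 3 genes with the smallest p are named, and of likeness and position the 2 nearest. From the WAVE list the risers against WT and the uncalled Wasf1 and Wasf2 are named as well. Members and lists were chosen with earlier results of these data known. P-values measure the spread between mice. At 41327333 to 61701245 counts per library, the scarcest member, Pcdh18, had a mean of 3.798 CPM in WT.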

Additional observations from a re-analysis of the deposited data

Results flagged for a closer look

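Of 60 sets of libraries, 10 genes in 6 groups each, 1 held a library far from the others: Pcdh19 in WT male 4, at 15.7 CPM, where the next highest WT library stood at 12.8 and the lowest at 10.1. Chance gives about 1 such library in 20 sets. Without it the log2 fold change of Pcdh19 in Q140 against WT was 1.02, against 0.95 with it.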

How the results depend on the processing

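Pcdh10, Pcdh19 and Pcdh20 were called higher on all 3 backgrounds under each of 13 alternatives and, against WT, without each of 16 libraries in turn; against WT their log2 fold changes ran from 0.49 to 0.58, 0.78 to 1.12 and 1.34 to 1.54 over the alternatives. Members called in Q140 against WT numbered 3 in males only, against 6 in the full fit, and 5 to 6 when single libraries were left out. In male against female, DESeq2 and the fit without wild type male 1 called 1 member each, Pcdh18. The sign turned for values not called in the contrast itself: Pcdh15 against WT in females only (0.0429), Pcdh1 on Ccdc82+/- with FPKM (0.0228 and 0.0229 with the larger and smaller pseudocount) and in males only (0.0055), Pcdh1 on Ccdc82-/- with FPKM (0.0426 and 0.0428) and in females only (0.0028), and Pcdh8 on Ccdc82-/- in females only (-0.0004). The cause was not tested, except that a single sex leaves fewer samples. Pcdh7 against WT lost its call with plate column, with FPKM and in each sex alone, and Pcdh9 lost it in 2 alternatives against WT, 6 on Ccdc82+/- and 1 on Ccdc82-/-. With FPKM the median gene moved by 0.05, 0.08 and 0.07 in the 3 Q140 contrasts, and the calls against WT were 5897 higher and 2118 lower, against 3485 and 3170. Replicate numbers did not pair the libraries: deviations of same-numbered libraries of other genotypes had a mean correlation of -0.02 over 115 pairs, other numbers -0.03 over 345, and 15 of 47 libraries were closest to one of their own number. With the replicate block 6, 5 and 5 members were called in the 3 Q140 contrasts, against 6, 4 and 4, Pcdh15 being added (0.13 and 0.14), and 0 in the Ccdc82 contrasts and interactions. Pcdh18, the scarcest by CPM at 3.798 in WT, had a 95% interval from -0.06 to 0.29 against WT.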
